A study of Mus musculus with 19 samples.

Results

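The respiratory chain genes of the mouse medial prefrontal cortex were examined in bulk poly(A) RNA-seq of 19 libraries. Members were the protein-coding entries whose symbols begin with Nduf (followed by a, b, c, s or v and a digit), Sdha to Sdhd, Uqcr, Cox4 to Cox8, Atp5 or mt-. These patterns matched 142 entries, of which 101 were protein coding; the other 41 were 22 tRNA genes, 2 rRNA genes and 17 pseudogenes. The 96 members with at least 10 counts in at least 4 libraries were used, of 57010 genes in the deposited table, and all 96 passed the expression filter of the test. The 5 entries below that minimum were Ndufb11b, Cox7b2, Cox8b, Cox8c and a second entry for Atp5o. Of the members used, 83 are encoded in the nucleus (36 in complex I, 4 in complex II, 8 in complex III, 18 in complex IV and 17 in complex V) and 13 in the mitochondrial genome (7 in complex I, 1 in complex III, 3 in complex IV and 2 in complex V). Cox5b-ps is listed as protein coding in the table and was kept, although its sequence is that of a copied gene.

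All mice are labelled wild type; strain, sex and age are not given in the sources used here. The controls (n = 4, numbered 1, 2, 4 and 5 in the labels) were gavaged with saline over 8 days and injected intraperitoneally with saline over 5 days. The LPS group (n = 5) was injected with the bacterial lipopolysaccharide at 1 mg/kg on those 5 days and had saline by gavage, which began 3 days before the injections. The sedanolide group (n = 5) was gavaged with sedanolide, a phthalide found in celery, at 20 mg/kg for 8 days and injected with saline. The co-treated group (n = 5) had both agents at these doses. The study's title places the work in LPS-induced depressive-like behaviour, complement C3a signalling and microglial glycolysis. The labels do not say that the libraries came from separate animals, so the p-values measure the spread between these libraries, which may be technical.

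The respiratory chain sits in the inner mitochondrial membrane. Complexes I and II pass electrons from NADH and succinate to ubiquinone, complex III passes them on to cytochrome c, and complex IV hands them to oxygen. The proton gradient built by complexes I, III and IV drives ATP synthase, here called complex V. Complex II is built from nuclear genes only, while the other complexes combine nuclear subunits with a core read from the mitochondrial genome, and neurons draw most of their ATP from this route.

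Library totals ran from 19.08 to 24.32 M counts, and the members took 5.26% to 10.74% of them. Markers of excitatory neurons were present in every group, with summed means between 5143 and 7619 CPM (counts scaled to a common library total with TMM factors, as are all levels here). By library they ran from 2909 CPM in control replicate 1 to 8870 CPM in sedanolide replicate 5. Oligodendrocyte markers summed to 2490, 2033, 6726, 4180 and 3434 CPM in sedanolide replicates 1 to 5, and to 2055 CPM in co-treated replicate 5. Their part in the differences below was not tested. Markers of the olfactory bulb, a neighbouring region, differed between libraries, from a sum of 3.034 CPM over the 4 markers to 718.6 CPM. Control replicates 1 and 5, LPS replicates 2, 3 and 4 and sedanolide replicates 3 and 4 had more than 20 CPM of Cdhr1, a marker of mitral and tufted cells of the bulb; no co-treated library did. No pair of replicates was alike within sampling noise (chi-square per degree of freedom of at least 2.472).

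Within these libraries the mitochondrially encoded members spanned a wide range of levels per kilobase of transcript. mt-Co1, the catalytic core of complex IV, averaged 24840 CPM per kilobase (15230 to 34010 over the 19 libraries). mt-Nd1 (9898 CPM per kilobase) and mt-Nd2 (5447), membrane subunits of complex I, and mt-Cytb (9647), the cytochrome b of complex III, followed. mt-Nd4 (3517), mt-Nd5 (3008) and mt-Nd6 (2964), which belong to the proton-pumping arm of complex I, stood lower. The other 6 stood far below these. mt-Co2, the subunit of complex IV that receives electrons from cytochrome c, averaged 327.6 CPM per kilobase, mt-Atp6, the proton channel subunit of complex V, 297.8, mt-Co3 287.9, mt-Nd3 275.7, mt-Nd4l 145.4 and mt-Atp8 11.23. Since the members of one genome are read from shared precursors, the position of these genes in annotated copies was looked up.

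Of those 6, 5 have an annotated near-identical copy in one cluster on nuclear chromosome 1. In the table's coordinates, whose build is not given in the sources used here, the copy of mt-Co2 is Gm28661 (chr1:24653966-24654646), that of mt-Atp6 is Gm10925 (chr1:24653055-24653732), that of mt-Co3 is Gm28437 (chr1:24652270-24653052), that of mt-Nd3 is Gm28438 (chr1:24651856-24652200) and that of mt-Nd4l is Gm10222 (chr1:24651488-24651781). Over the 681 bases compared, mt-Co2 and Gm28661 had 0 differences, and over 294 bases mt-Nd4l and Gm10222 had 0. The first 90 bases of the mt-Co2 transcript and of its copy (GENCODE M21, GRCm38) are shown because a read from either cannot be assigned to one of them; no base is in capitals, since none differs.
mt-Co2: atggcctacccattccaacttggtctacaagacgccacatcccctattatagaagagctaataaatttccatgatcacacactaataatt
Gm28661: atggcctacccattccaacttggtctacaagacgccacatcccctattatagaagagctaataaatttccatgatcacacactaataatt
The copy took a median of 36.92% of the counts of the pair mt-Co2 and Gm28661 over the libraries, 52.23% for mt-Atp6, 41.8% for mt-Co3, 33.64% for mt-Nd4l and 12.67% for mt-Nd3. For mt-Nd4 (1.101%) and mt-Co1 (0.2778%), whose copies cover 63.57% and 31.26% of the gene, the share was small. Adding the copy brought mt-Co2 to 506.4 CPM per kilobase, still far under mt-Co1. For mt-Atp8 (chrMT:7766-7969) no such copy was found among annotated transcripts, and the search could not find a copy without annotation. It shares 43 bases, 21.08% of its span, with mt-Atp6 on the same strand. How reads that match several places were counted is not given in the sources used here, and its part in these levels was not tested. The levels of these 6 members are therefore uncertain, and their order with respect to each other cannot be read.

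**Figure D1:**
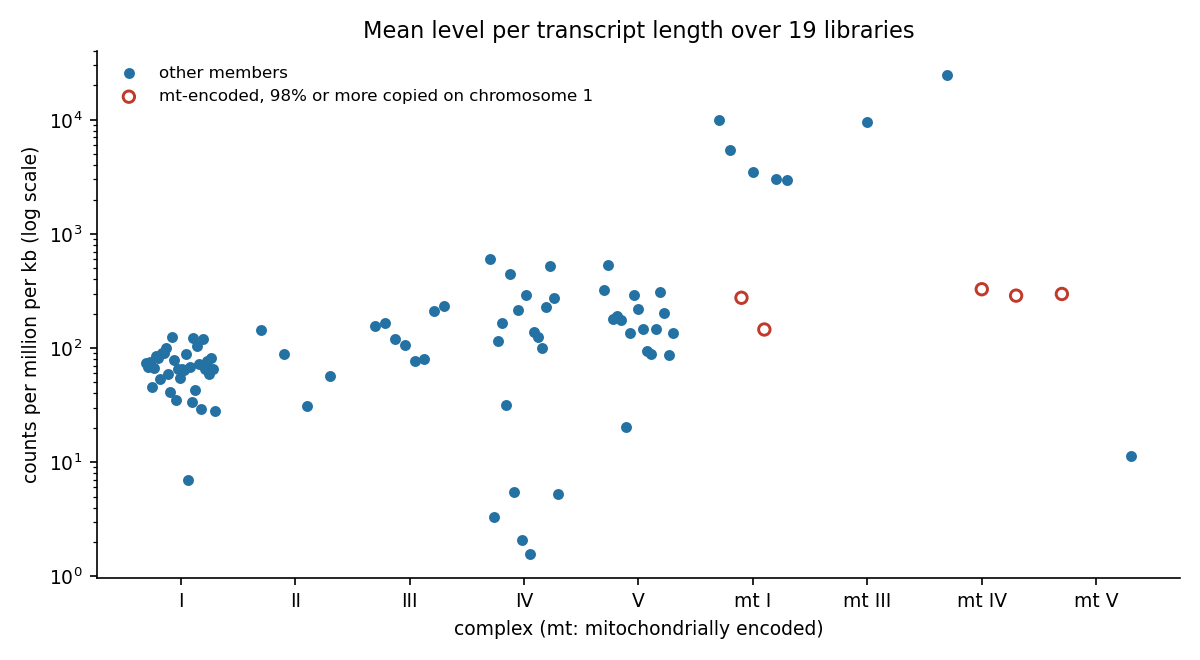
Mean level of each member in CPM per kilobase of transcript (log axis) over the 19 libraries, by complex and by genome of origin. The mitochondrially encoded members run from mt-Atp8 at 11.23 to mt-Co1 at 24840, and the 5 with a near-identical nuclear copy lie between 145.4 and 327.6.

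Nuclear members had a median of 87.89 CPM per kilobase, between 67.4 in complex I and 175 in complex V. The highest in each complex were Ndufb10 in complex I (124.2), an accessory subunit of the membrane arm, Sdha in complex II (144.6), the flavoprotein that oxidises succinate, Uqcrq in complex III (235.6), a small subunit, Cox4i1 in complex IV (601), the common form of its largest nuclear subunit, and Atp5b in complex V (534.9), the catalytic beta subunit. The remaining complex II genes stood at 87.89 (Sdhb, the iron-sulphur subunit), 56.41 (Sdhd) and 31.07 (Sdhc), the last pair being membrane anchors. These levels depend on the transcript chosen for the length, and that of Atp5g1 is understated by a long annotated form.

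Complex IV has subunits with tissue-restricted forms, and in these libraries the common forms exceeded the restricted ones by a wide margin per kilobase. Cox4i2, the lung-enriched and oxygen-sensitive form, stood at 3.295 CPM per kilobase against 601 for Cox4i1. Cox6a2, the heart and muscle form, stood at 5.478 against 447 for Cox6a1, and Cox6b2, the testis form, at 2.06 against 216.2 for Cox6b1. Cox7a1, the muscle form, reached 1.572 against 138.9 for Cox7a2, and Ndufa4l2, a paralogue of the complex IV subunit gene Ndufa4 known from vascular mural cells and from low oxygen, reached 5.239 against 274.4. Cox7b (99.55) and Cox8a (528.7) were measured, while their restricted forms Cox7b2, Cox8b and Cox8c were under the count minimum. Cox6a2 lies within Itgad on the opposite strand, and whether the counting used strand is not given in the sources used here.

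Across the 4 groups the summed nuclear members ran from 7702 to 11100 CPM. The 4 controls stood at 10170, 9527, 10120 and 11100 CPM (mean 10230 ± 651, SD), and the 5 LPS libraries at 9146, 8547, 8866, 9817 and 9850 (9245 ± 577). The 5 sedanolide libraries stood at 10240, 10020, 8477, 8086 and 7702 (8906 ± 1160), and the co-treated ones at 10390, 10670, 10400, 10450 and 8556 (10090 ± 866). Sedanolide replicates 1 and 2 and co-treated replicates 1 to 4 lay within the range of the controls, whereas sedanolide replicates 3, 4 and 5 and co-treated replicate 5 lay below every control. LPS replicates 1 to 3 also lay below every control, and LPS replicates 4 and 5 within their range. In bulk tissue, fewer cells of a type and less RNA per cell cannot be told apart.

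The summed mitochondrially encoded members varied more within groups and their groups overlapped throughout. They averaged 76880 ± 17500 CPM (SD, n = 4) in the controls, 75110 ± 15500 (n = 5) with LPS, 76100 ± 15800 (n = 5) with sedanolide and 80670 ± 22400 (n = 5) in the co-treated group. The extremes of all libraries were both co-treated, replicate 5 at 42940 CPM and replicate 4 at 102400. The within-group SD on the log2 scale had a median of 0.216 over nuclear members, 0.399 over the mitochondrially encoded members without a near-full copy and 0.586 over those with one.

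**Figure D2:**
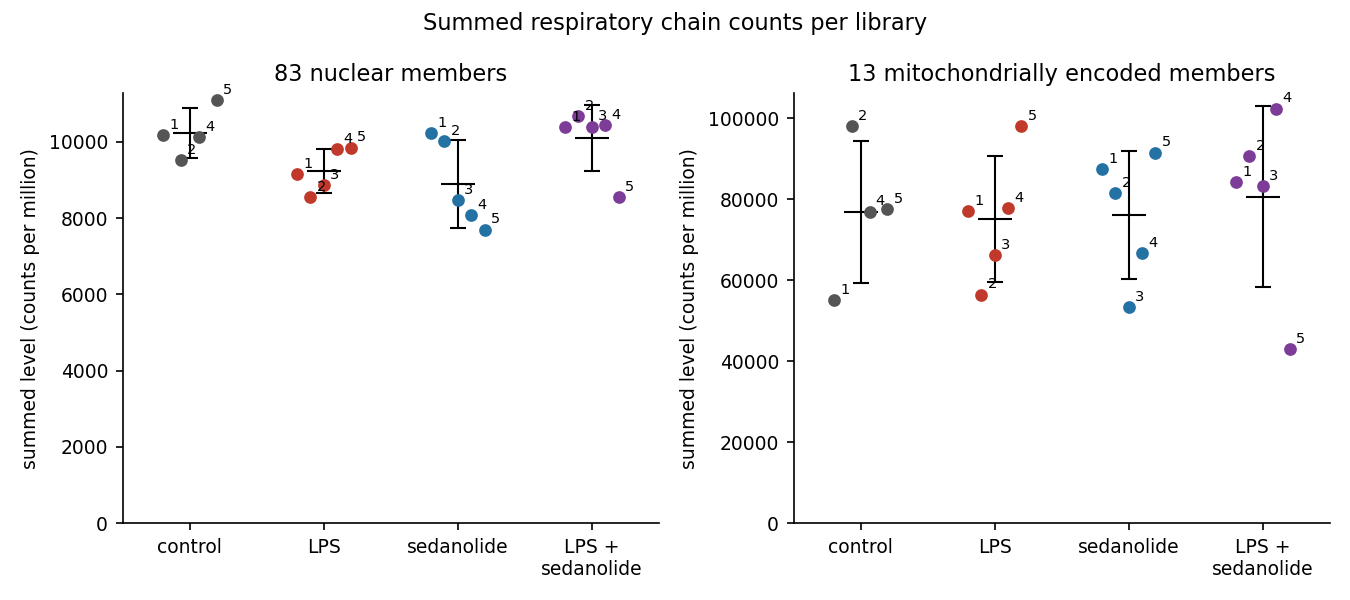
Summed level of the 83 nuclear and the 13 mitochondrially encoded members in each library (CPM), with group means and SD. In the nuclear sum LPS replicates 1 to 3, sedanolide replicates 3 to 5 and co-treated replicate 5 lie under the lowest control at 9527 CPM, and the mitochondrial sums of all 4 groups overlap.

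Whether LPS alone was accompanied by other levels of these genes was asked against the controls. In edgeR's quasi-likelihood fit, with p-values adjusted over the 17757 genes tested (Benjamini-Hochberg, threshold 0.05), LPS changed 3 of the 96 members: Ndufa4l2 rose, and Ndufa12 and Ndufb2, both in complex I, fell. Over all genes tested 10.9% were called, 8.47% higher and 2.44% lower, so the members were not called more often than other genes. The nuclear members nonetheless lay mostly to one side of 0: their median log2 difference was -0.20, with 76 of 83 below 0, beside -0.00 and 50.6% below 0 over all genes tested. By complex the medians were -0.19 in complex I (36 of 36 below 0), -0.08 in complex II (4 of 4), -0.20 in complex III (7 of 8), -0.20 in complex IV (12 of 18) and -0.21 in complex V (17 of 17). Markers of other cells moved with LPS too. Of the markers tested, 7 of 8 for microglia were called higher (sum 375.2 to 593.5 CPM in controls, 913.2 to 1175 with LPS), 8 of 8 for endothelium (272.7 to 419.1, then 526.4 to 694.9) and 6 of 6 for neutrophils (7.302 to 10.75, then 63.33 to 66.4), and none was at 0 in all libraries. Their part in the nuclear shift was not tested. The 13 mitochondrially encoded members had a median of -0.05, 0 were called by edgeR, limma-voom or DESeq2, and 0 of them had an unadjusted p under 0.05 in edgeR.

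Ndufa4l2 (ENSMUSG00000040280, chr10:127350836-127353023 in the table) stood at 3.174, 5.096, 3.534 and 3.797 CPM in the controls and at 8.406, 5.852, 5.876, 6.197 and 5.944 CPM with LPS. Every LPS library was above every control, and LPS replicate 1 was the highest. The log2 difference was 0.73 (SE 0.151), a 1.656-fold higher level with an adjusted p of 0.00257 in edgeR, and it stayed called in all 19 fits that left out 1 library. Among the 12 libraries with little Cdhr1, 2 of them controls and 2 LPS, the log2 difference was 0.71 with an adjusted p of 0.107. Cox4i2, another restricted form with a value on the higher side, had a log2 difference of 0.57 (SE 0.223) with an adjusted p of 0.114 in edgeR. Cox7a1 ran from 0.3436 to 1.107 CPM in the controls and from 0.4227 to 1.033 CPM with LPS, so its groups overlapped.

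The summed level of 10 pericyte markers, cells in which Ndufa4l2 is known to be enriched in the brain, moved with it. The sum was 323 to 478.9 CPM in the controls, 555.8 to 622.8 with LPS, 322.6 to 400.7 with sedanolide and 406.3 to 555.6 in the co-treated group, and none of the 10 was at 0 in all libraries. With LPS 5 of the 10 were called higher, among them Abcc9 (log2 difference 1.18, SE 0.131, adjusted p 2.98e-06) and Rgs5 (0.73, SE 0.152, adjusted p 0.00261). Its part in the Ndufa4l2 result was not tested.

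Ndufa12 (ENSMUSG00000020022, chr10:94034582-94057305), an accessory subunit at the junction of the matrix arm of complex I, stood at 51.2, 55.31, 65.33 and 63.79 CPM in the controls and at 48.09, 37.18, 44.5, 50.38 and 46.59 CPM with LPS. No LPS library reached the lowest control. The log2 difference was -0.38 (SE 0.0992; adjusted p 0.0162 in edgeR), and it was lost when control replicate 4 or control replicate 5 was left out (highest adjusted p 0.0724). It was also lost with a replicate block (adjusted p 0.065), with only these groups fitted (0.0602) and in the libraries with little Cdhr1 (log2 difference -0.37, adjusted p 0.141). Of all genes 7.55%, 6.51% and 4.78% were called in these fits, against 10.9% in the main fit. A processed copy on chromosome 5, Ndufa12-ps, covers 36.2% of the Ndufa12 transcript and held a mean of 158.7 counts, so reads from that stretch could be split.

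Ndufb2 (ENSMUSG00000002416, chr6:39569508-39580316), an accessory subunit of the membrane arm of complex I, stood at 24.29, 15.66, 16 and 23.74 CPM in the controls and at 12.12, 14.46, 14.75, 17.38 and 13.92 CPM with LPS. Of the 5 LPS libraries 4 lay below all controls, and LPS replicate 4 lay above control replicates 2 and 4. The log2 difference was -0.46 (SE 0.138; adjusted p 0.0375 in edgeR), and the call held in 13 of the 19 fits that left out 1 library. It was lost with only these groups fitted (adjusted p 0.146), with a replicate block (0.0917) and with little Cdhr1 (log2 difference -0.30, adjusted p 0.296). Ndufs4, an accessory subunit needed for the assembly of complex I, had a log2 difference of -0.36 with an adjusted p of 0.103. mt-Nd3, the mitochondrially encoded member of smallest p on the higher side, had 0.22 with an adjusted p of 0.563.

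Sedanolide alone was then set against the same 4 controls, which the LPS comparison shares. It changed 4 of 96 members, all lower: Cox6b2, Atp5g2, Ndufv3 and Ndufa12. Over all genes tested 5.31% were called, 3.2% higher and 2.11% lower. The nuclear median was -0.32, with 79 of 83 below 0, beside -0.01 and 51.8% below 0 over all genes. The complexes had medians of -0.32 (complex I, 34 of 36 below 0), -0.14 (complex II, 4 of 4), -0.35 (complex III, 6 of 8), -0.32 (complex IV, 18 of 18) and -0.33 (complex V, 17 of 17). The mitochondrially encoded members had a median of -0.15, with 0 called by any of the 3 tools and 0 at an unadjusted p under 0.05.

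Cox6b2 (ENSMUSG00000051811, chr7:4754791-4756093) had the largest difference of the 4. It stood at 1.735, 1.714, 1.62 and 1.961 CPM in the controls and at 0.6858, 0.6842, 0.7108, 0.6708 and 0.6846 CPM with sedanolide, with no overlap. The log2 difference was -1.35 (SE 0.279; adjusted p 0.0137 in edgeR), at a low level of expression. LPS libraries ran from 0.7044 to 1.612 CPM and co-treated libraries from 0.3875 to 1.504 CPM. All of these were also under the lowest control, but with LPS only narrowly (1.612 against 1.62 CPM), and the gene averaged 25.474 counts per library. The differences had adjusted p of 0.223 (LPS, log2 difference -0.54) and 0.0692 (co-treated, -0.77) in edgeR.

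Atp5g2 (ENSMUSG00000062683, chr15:102571299-102580787), 1 of the genes for the c subunit of the ring of ATP synthase, stood at 71.57, 58.97, 58.26 and 71.81 CPM in the controls. With sedanolide it stood at 54.09, 50.24, 53.49, 47.88 and 43.72 CPM, all below the controls (log2 difference -0.39, SE 0.0956; adjusted p 0.0285 in edgeR). The whole of its transcript is repeated in 2 processed pseudogenes, Gm10175 (mean 25.26 counts) and Gm10231 (mean 1.737 counts). With LPS its 5 libraries (57.28 to 66.75 CPM) overlapped the controls.

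Ndufv3 (ENSMUSG00000024038, chr17:31739089-31750305), a small subunit of the NADH-oxidising module of complex I, stood at 48.98, 45.68, 46.73 and 52.03 CPM in the controls and at 40.65, 38.85, 40.34, 39.07 and 34.41 CPM with sedanolide. The groups did not overlap, and sedanolide replicate 5 was the lowest (log2 difference -0.32, SE 0.0854; adjusted p 0.037 in edgeR). Ndufa12 stood at 44.35, 50.14, 43.45, 42.22 and 48.47 CPM, all below the controls (log2 difference -0.37, SE 0.0992; adjusted p 0.0404). Ndufb7, an accessory subunit of complex I, came next with -0.33 and an adjusted p of 0.0521, and Ndufa4 had -0.49 with an adjusted p of 0.101.

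These sedanolide calls rest on few libraries. Without control replicate 5 the count of members called was 0, and without co-treated replicate 5, which enters only the shared estimate of spread, it was 12. Shares of all genes called in these fits are not given here, so neither count is read as particular to the members. On the higher side the smallest p belonged to Ndufa10 (log2 difference 0.11, adjusted p 0.253), a subunit of the membrane arm of complex I, mt-Nd4l (0.91, adjusted p 0.403) and mt-Co1 (0.07, adjusted p 0.873). Atp5g2, Ndufv3 and Ndufa12 each also lost the call when only these groups were fitted (adjusted p 0.0978, 0.0909 and 0.1), in the libraries with little Cdhr1 (0.399, 0.348 and 0.252) and under the length and GC offsets (0.115, 0.0768 and 0.176). Cox6b2 lost it with little Cdhr1 (log2 difference -1.3, adjusted p 0.227). Of all genes, 0.113% were called with only these groups fitted, 0.0451% with little Cdhr1 and 1.52% with the offsets, against 5.31% in the main fit. The losses are therefore not read as particular to the members. mt-Nd4l ran from 15.68 to 91.99 CPM within the sedanolide group.

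**Figure D3:**
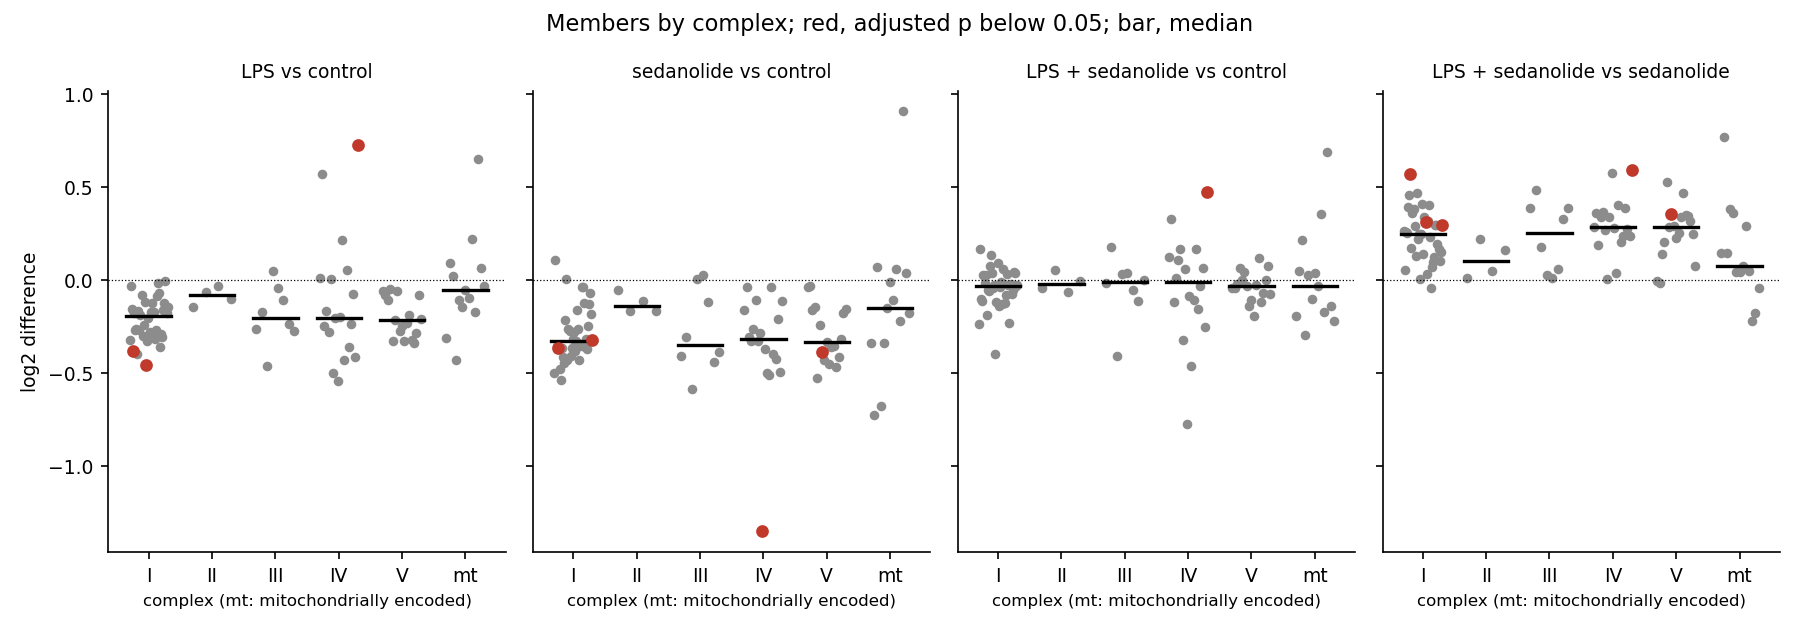
Log2 difference of each member in 4 of the comparisons, with nuclear members by complex and mitochondrially encoded members apart; bars are medians and red points were called. In LPS and in sedanolide against control all 17 nuclear complex V members lie below 0, in co-treated against sedanolide 80 of 83 nuclear members lie above 0, and co-treated against control centres near 0.

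The co-treated group was set against sedanolide alone to see the difference made by LPS in sedanolide-treated mice; this shares no library with LPS against control. Here 5 members rose: Ndufa4l2, Atp5g2 and Ndufv3, already named, and the complex I subunit genes Ndufb7 and Ndufa3. Atp5g2 and Ndufv3 had fallen in sedanolide against control, which shares the sedanolide libraries. Over all genes tested 5.58% were called, 5.09% higher and 0.484% lower. The nuclear median was 0.26, with 3 of 83 below 0, beside -0.02 and 53.9% below 0 over all genes. Medians were 0.25, 0.11, 0.25, 0.28 and 0.29 in complexes I to V, and 0.08 over the mitochondrially encoded members, of which edgeR and DESeq2 called 0 and limma-voom 1.

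Ndufa4l2 stood at 2.789, 3.714, 4.043, 3.564 and 3.879 CPM with sedanolide and at 5.405, 5.98, 5.074, 5.656 and 4.995 CPM in the co-treated group, without overlap. The log2 difference was 0.59 (SE 0.142; adjusted p 0.014 in edgeR), and it was called in all 19 fits that left out 1 library. With offsets for length and GC content it was 0.43 with an adjusted p of 0.083, and with a replicate block added 0.43 with 0.16, so the call was lost. Without these offsets it is the 1 member that rose in both comparisons of LPS-injected with saline-injected mice, which use separate libraries. Of the pericyte markers, 4 were called higher here too.

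Atp5g2 stood at 60.1, 64.24, 67.38, 74.46 and 53.26 CPM in the co-treated group, 4 of them above every sedanolide library (log2 difference 0.36, SE 0.0906; adjusted p 0.0206). Ndufv3 stood at 50.66, 51.97, 47.69, 49.98 and 37.42 CPM, with replicate 5 inside the sedanolide range (0.30, SE 0.0809; adjusted p 0.0326). In both genes the co-treated replicate 5 is the library that overlaps.

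Ndufb7 (ENSMUSG00000033938, chr8:84293300-84298255) stood at 54.77, 52.1, 49.62, 44.1 and 37.88 CPM with sedanolide and at 59.73, 58.04, 64.79, 63.59 and 50.46 CPM in the co-treated group (log2 difference 0.31, SE 0.0902; adjusted p 0.0452). Ndufa3 (ENSMUSG00000035674, chr7:3620372-3623326), a small accessory subunit of the membrane arm, stood at 43.94, 41.05, 29.14, 25.74 and 26.01 CPM with sedanolide. In the co-treated group it stood at 53.18, 55.35, 47.64, 57.4 and 32.34 CPM (log2 difference 0.57, SE 0.165; adjusted p 0.0493). Sedanolide replicates 1 and 2 sat above replicates 3 to 5 in both genes, and co-treated replicate 5 was the lowest of its group. With offsets for length and GC content all of the 5 lost their call, and Atp5g2 had a log2 difference of 0.08. Ndufb7, Ndufa3 and Ndufv3 also lost it with only these groups fitted (adjusted p 0.0924, 0.0971 and 0.0765). Without co-treated replicate 5 the count called was 24, without sedanolide replicate 1 it was 16, and without sedanolide replicate 4, sedanolide replicate 5, co-treated replicate 3 or co-treated replicate 4 it was 1. The share of all genes called in each of these fits is not given here, so these counts are not read as particular to the members.

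Promoters are shown for 3 of the members called in this comparison, chosen because each holds a motif, marked in capitals. The motifs belong to factors known to act on nuclear respiratory genes. The promoters come from RefSeq (GRCm38.p6), from 250 bases before to 50 after the annotated start, and 67 of the 83 nuclear members matched an entry. In Atp5g2 (chr15:102670998-102671297, minus strand) the capitals mark a match to TGCGCANGC, a form of the NRF1 motif, on the other strand; in Ndufb7 (chr8:83566508-83566807, plus strand) they mark CCGGAAG, an ETS motif; in Ndufa3 (chr7:3617123-3617422, plus strand) they mark AAGATGG, a YY1 motif.
Atp5g2: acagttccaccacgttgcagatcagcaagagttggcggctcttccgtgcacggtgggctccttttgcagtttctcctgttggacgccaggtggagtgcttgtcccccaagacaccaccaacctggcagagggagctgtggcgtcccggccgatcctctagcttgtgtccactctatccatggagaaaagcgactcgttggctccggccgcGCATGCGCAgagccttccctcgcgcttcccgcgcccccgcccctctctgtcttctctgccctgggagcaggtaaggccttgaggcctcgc
Ndufb7: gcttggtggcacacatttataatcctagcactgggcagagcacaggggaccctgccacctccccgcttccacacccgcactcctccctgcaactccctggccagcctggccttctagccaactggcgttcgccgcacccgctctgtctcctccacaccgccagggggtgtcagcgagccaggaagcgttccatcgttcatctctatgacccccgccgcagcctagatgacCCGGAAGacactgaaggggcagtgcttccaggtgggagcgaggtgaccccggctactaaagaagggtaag
Ndufa3: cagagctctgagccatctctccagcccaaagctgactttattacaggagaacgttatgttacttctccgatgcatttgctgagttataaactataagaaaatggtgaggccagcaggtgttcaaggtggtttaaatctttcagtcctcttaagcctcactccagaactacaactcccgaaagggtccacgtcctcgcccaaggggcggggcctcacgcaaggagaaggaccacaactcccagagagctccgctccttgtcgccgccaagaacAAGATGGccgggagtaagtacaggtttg
On either strand the NRF1 form was found in 12 of the 67 member promoters (17.9%), in 4.16% of all 32851 promoters of the table and in 7.95% of the 11705 coding genes tested. CCGGAAG was found in 16 (23.9%), against 8.86% and 16.2%, AAGATGG in 10 (14.9%), against 6.34% and 6.76%, and AAGGTCA, the motif of the oestrogen-related receptors, in 8 (11.9%), against 4.72% and 3.2%. A match describes the letters in this window and is not a bound site, and 37 of the 67 held at least 1 of the 4 motifs. Of the other members called here, Ndufv3 held none of the 4 motifs and Ndufa4l2 had no entry. Among members called only in other comparisons, Ndufa12 and Cox6b2 held none and Ndufb2 held AAGGTCA.

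Co-treated mice were also set against LPS alone, with which they differ by sedanolide. edgeR called 0 of 96 members, 9 had an unadjusted p under 0.05, and over all genes tested 1.97% were called, 0.287% higher and 1.68% lower. DESeq2 called 1 member, beside 4.61% of all genes, and limma-voom 29, beside 14.9%. The nuclear median was 0.15, with 7 of 83 below 0, beside 52.1% below 0 over all genes, and the mitochondrial median was 0.07. The smallest p was that of Ndufa10, at 132.1, 124.4, 127.5, 130.1 and 125.4 CPM with LPS and 139.7, 139.6, 151.4, 140.7 and 161.5 CPM in the co-treated group. Although these groups did not overlap, the log2 difference of 0.20 (SE 0.0554) had an adjusted p of 0.0723. Ndufa12 had 0.26 (adjusted p 0.14) and Atp5g1, another c-subunit gene, 0.26 (adjusted p 0.171), while Cox7a1 had -0.68 (adjusted p 0.275), Ndufa4l2 -0.25 (adjusted p 0.314) and Cox4i2 -0.24 (adjusted p 0.51).

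Against the controls the co-treated group had 1 member called, Ndufa4l2, with a log2 difference of 0.48 (SE 0.151; adjusted p 0.0482), and 3 of its 5 libraries above every control. That call was kept in 5 of the 19 fits that left out 1 library. Over all genes tested 11.1% were called, 6.38% higher and 4.69% lower. The nuclear median was -0.02, with 53 of 83 below 0, and the mitochondrial median -0.03, beside 0.01 over all genes. Ndufa10 (0.17, adjusted p 0.0722), Cox7a2l (0.17, adjusted p 0.177), a factor joining complexes III and IV, Ndufb2 (-0.40, adjusted p 0.0668), Cox6b2 (-0.77, adjusted p 0.0692) and Uqcrb (-0.41, adjusted p 0.178), a subunit of complex III, had the next smallest p.

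The interaction asked whether the LPS difference was the same with and without sedanolide, and it uses all 4 groups. Ndufa12 was the 1 member called, at 0.63 (SE 0.137; adjusted p 0.0418 in edgeR), with 0.586% of all genes called, 0.214% higher and 0.372% lower. Its co-treated libraries stood at 52.45, 63.49, 50.51, 57.18 and 48.74 CPM, reaching into the control range, whereas all LPS and all sedanolide libraries lay below the controls. The call was kept in 5 of the 19 fits that left out 1 library (highest adjusted p 0.132). It was lost with a replicate block (adjusted p 0.155), with offsets for length and GC content (0.126) and with little Cdhr1 (0.384). Of all genes 0.18%, 0.445% and 0.113% were called in these fits, against 0.586% in the main fit. Ndufv3 (0.44, adjusted p 0.0964) and Ndufb7 (0.49, adjusted p 0.0993) followed, and mt-Nd4l (-0.87, adjusted p 0.69), mt-Nd5 (-0.24, adjusted p 0.776) and Cox4i2 (-0.21, adjusted p 0.797) had the smallest p on the lower side. The nuclear median of the interaction was 0.48, with 4 of 83 below 0, beside -0.02 and 52.9% below 0 over all genes; the mitochondrial median was 0.17.

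**Figure D4:**
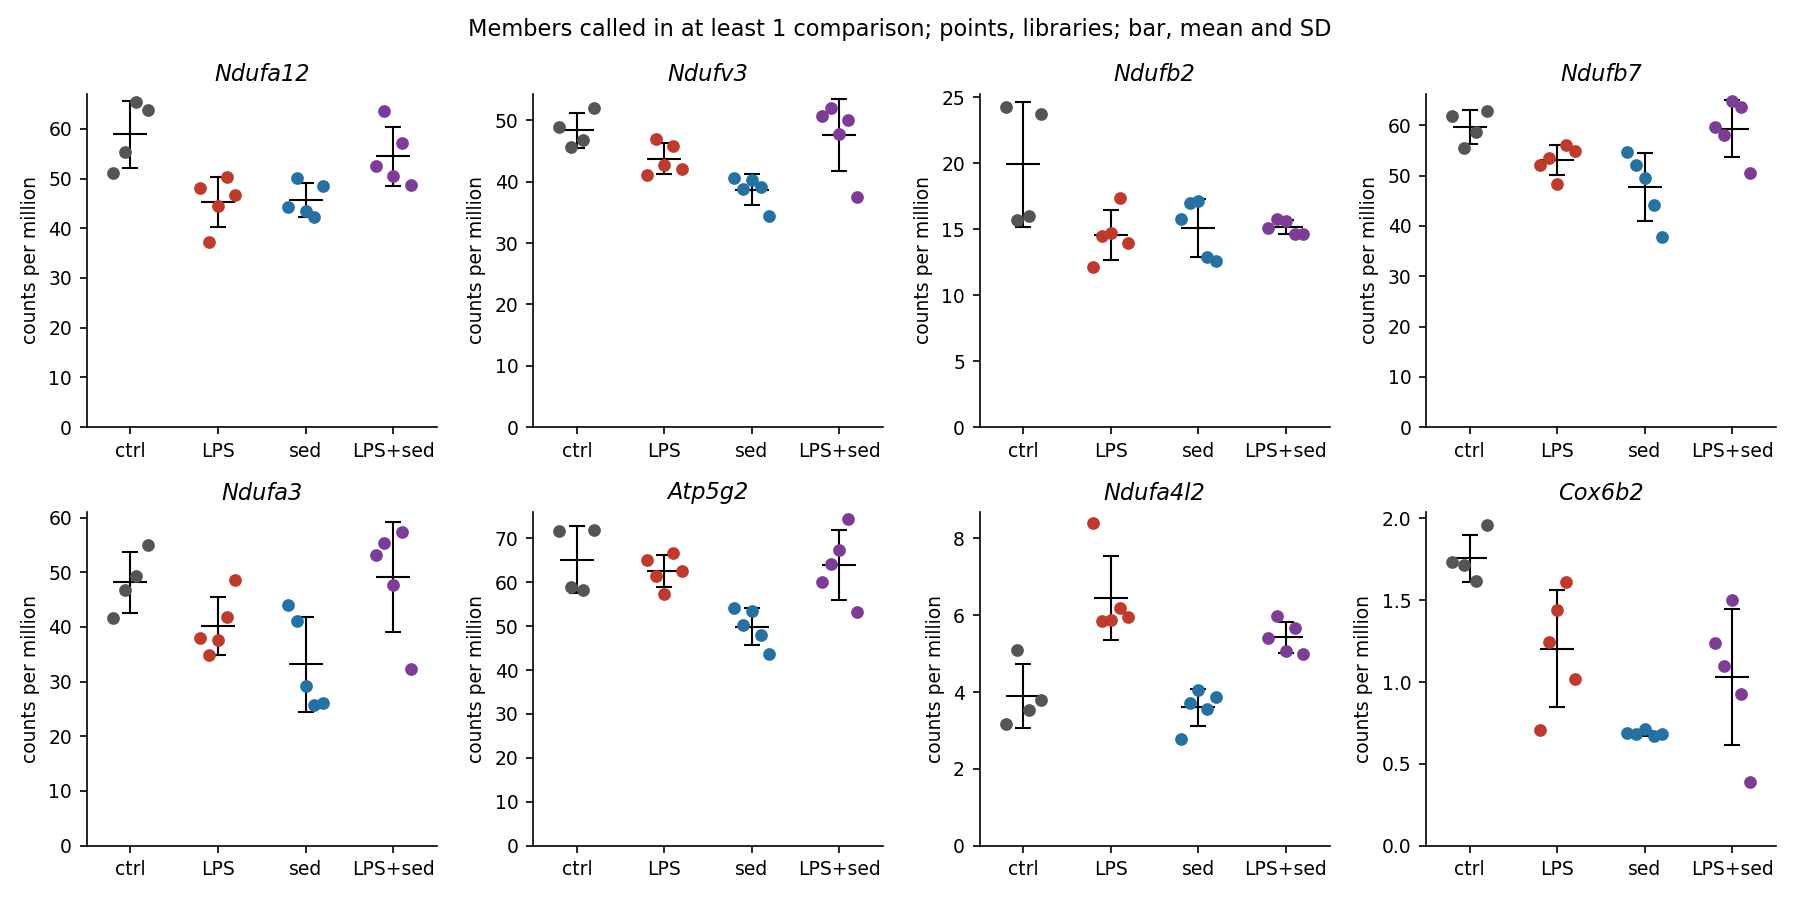
Level of each of the 8 members called in any comparison, in CPM, in every library, with group means and SD. Ndufa4l2 is higher in every LPS library than in every control, and Ndufa12 and Cox6b2 lie below the controls in all 5 sedanolide libraries.

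Complex II has no mitochondrial subunit. Its median was nearer to 0 than that of the other nuclear sets in each of the comparisons except co-treated against control. The transcripts of Sdha, Sdhb, Sdhc and Sdhd have 2900, 1142, 3171 and 1231 bases. Longer transcripts in general had smaller differences, as given in the next paragraph, so the median is not read as particular to complex II. The part of length in it was not tested. edgeR called 0 of the 4 Sdh genes in each comparison, DESeq2 called 1 lower with LPS, limma-voom called 2 lower with sedanolide, 2 higher in co-treated against sedanolide and 2 higher in the interaction. Over all genes DESeq2 called 11.6% with LPS, and limma-voom 24.8%, 19.8% and 21.6% in the tests just named. The log2 differences of the Sdh genes lay between -0.17 and 0.22 in the 5 comparisons of groups, and between 0.08 and 0.28 in the interaction. Sdha stood at 428.4, 412.1, 467 and 442.8 CPM in the controls and at 393.8, 377.7, 395.6, 405.7 and 409.9 CPM with LPS, all below the lowest control, yet the log2 difference of -0.14 had an adjusted p of 0.189. Sdhb had -0.17 (adjusted p 0.182) in sedanolide against control and 0.22 (adjusted p 0.0873) in co-treated against sedanolide.

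The nuclear differences were larger for members with short transcripts, and the same held for other genes. In sedanolide against control the median log2 difference was -0.36 for the 56 nuclear members under 1000 bases, -0.16 for the 21 between 1000 and 2000 bases and -0.04 for the 6 above, beside -0.22, -0.07 and 0.04 for all genes in these classes. In LPS against control the medians were -0.24, -0.11 and -0.07, beside -0.09, -0.04 and 0.02. In co-treated against sedanolide they were 0.30, 0.14 and 0.03, beside 0.16, 0.04 and -0.05. In both classes up to 2000 bases the members' median was farther from 0 than that of all genes, in each of these 3 comparisons.

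By library, the short nuclear members had a median log2 deviation from the mean over libraries of -0.33, -0.42 and -0.50 in sedanolide replicates 3, 4 and 5 and -0.31 in co-treated replicate 5. The 1964 other genes under 1000 bases stood at -0.13, -0.16 and -0.19, and at -0.13, in the same 4 libraries. In sedanolide replicates 1 and 2 the members stood at 0.15 and 0.08. When transcript length and GC content were entered as offsets, the nuclear median was -0.13 instead of -0.32 in sedanolide against control and 0.05 instead of 0.26 in co-treated against sedanolide, with 2 and 0 members called. With sedanolide these 2 were Cox6b2, lower, and mt-Nd3, higher (0.64, adjusted p 0.0403), so the calls of Atp5g2, Ndufv3 and Ndufa12 were lost, beside 1.52% of all genes called in that fit. In LPS against control the nuclear median was -0.19 with these offsets, and 14 members were called, 12 of them lower, beside 11.3% of all genes. The other 2 were Ndufa4l2 and mt-Nd3 (0.66, adjusted p 0.00548), and mt-Nd3 was also called higher in co-treated against control (0.61, adjusted p 0.015). The mitochondrial medians turned sign with the offsets, to 0.26 with LPS and 0.34 with sedanolide against control. Transcript length moved with these differences in the 4 libraries; its part in them was not tested further.

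**Figure D5:**
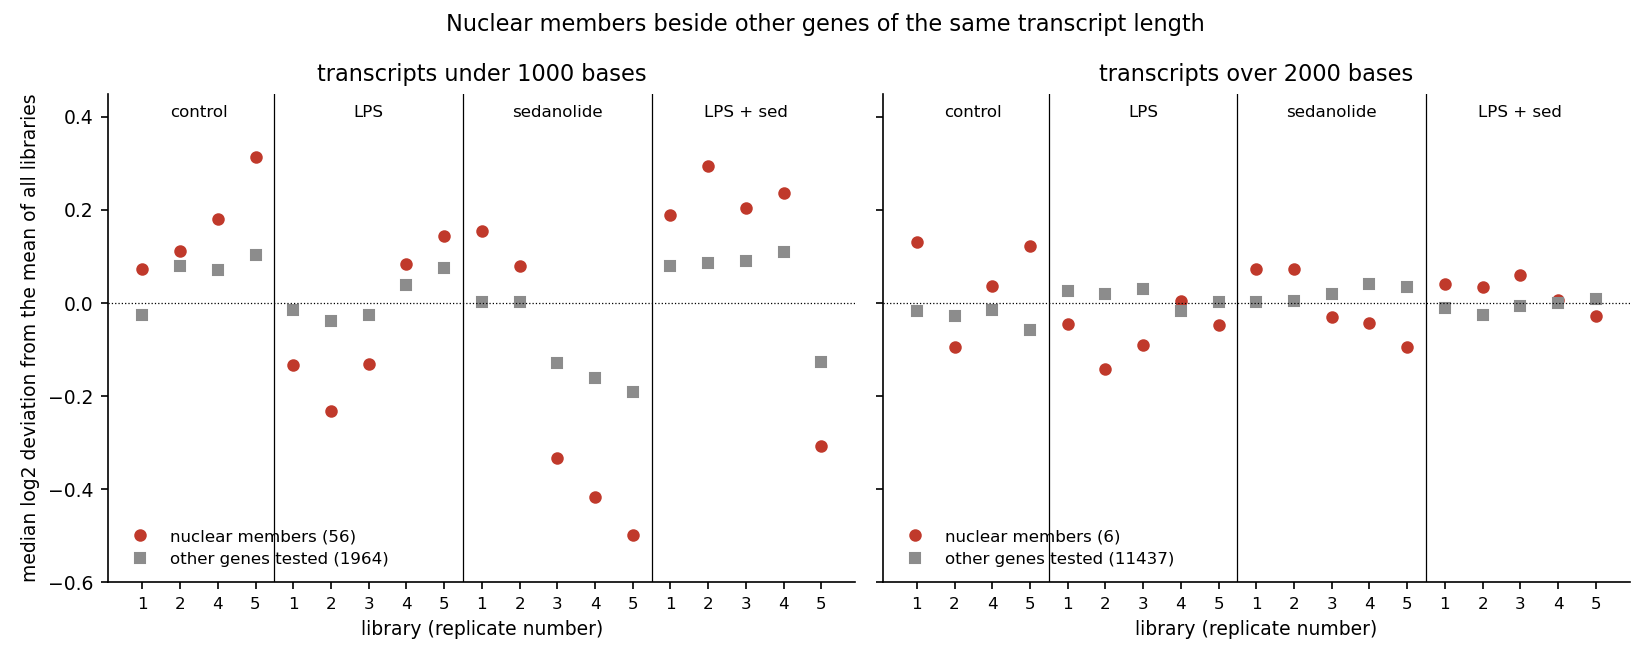
Median log2 deviation of nuclear members and of other genes from their mean over libraries, in each library, for transcripts under 1000 bases (left) and over 2000 bases (right). Sedanolide replicates 3 to 5 and co-treated replicate 5 have the lowest values for transcripts under 1000 bases, in members and in other genes alike.

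Genes that serve the chain gave few calls in edgeR, and limma-voom called more of them. Of 46 assembly factor genes, LPS against control called 1 lower, Cox14 (log2 difference -0.42, adjusted p 0.0195), which acts early in complex IV assembly, and sedanolide against control also called it lower (-0.40, adjusted p 0.0468) in edgeR. limma-voom called 7 lower with LPS and 11 lower with sedanolide, and DESeq2 3 and 2 lower. In the remaining tests edgeR called 0 of the 46, with 4 to 11 at an unadjusted p under 0.05. limma-voom called 10 higher in co-treated against LPS, 10 higher and 1 lower in co-treated against sedanolide, 1 higher and 3 lower in co-treated against control and 15 higher in the interaction, and DESeq2 called 0, 2 higher, 1 lower and 2 higher in these. Of 27 genes that copy, transcribe or process mitochondrial DNA and RNA, LPS called Mterf3 lower (-0.30, adjusted p 0.0368), which represses mitochondrial transcription, and sedanolide called Ssbp1 lower (-0.56, adjusted p 0.0431), the single-stranded DNA binding protein of mitochondria. Of these 27 limma-voom called 6 lower with LPS, 3 higher and 4 lower with sedanolide, and 7 higher and 1 lower in the interaction. Of 77 mitochondrial ribosome genes edgeR called 0 in each of the 6 tests. Their median log2 difference was -0.14 with LPS, where 15 had an unadjusted p under 0.05 and limma-voom called 15 and DESeq2 3, all lower. With sedanolide the median was also -0.14, 19 had an unadjusted p under 0.05, and limma-voom called 28 lower and 1 higher and DESeq2 4 lower. Set against LPS alone the co-treated group had a median of 0.12, and set against sedanolide alone 0.09. In the former limma-voom called 13 of these ribosome genes higher and DESeq2 1. In the latter limma-voom called 30 higher and 1 lower and DESeq2 0. For the interaction limma-voom called 42 higher and DESeq2 1 higher. Over all genes limma-voom called 25.4% with LPS, 24.8% with sedanolide and 21.6% in the interaction. For co-treated against LPS, sedanolide and control it called 14.9%, 19.8% and 26.9%. DESeq2 called 11.6%, 11.5% and 2.83%, and 4.61%, 5.47% and 13.8%, in the same order. Counts by these tools here and in the next paragraph stand beside those shares. No such share is given here for the unadjusted p.

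Of 14 transcriptional regulators of mitochondrial biogenesis, Ppard, a lipid-sensing nuclear receptor, rose with LPS against control (0.66, adjusted p 0.00272) and in co-treated against control mice (0.44, adjusted p 0.043). Ppargc1a, the coactivator PGC-1alpha, fell in the latter (-0.68, adjusted p 0.0474). In that comparison edgeR also called the 4 bulb markers lower, among them Cdhr1 (-5.17, adjusted p 0.0396), and Gad2, a marker of inhibitory neurons (-0.89, adjusted p 0.0379). The sum of 8 inhibitory neuron markers was 970 to 2467 CPM in the controls and 861.4 to 923.2 CPM in the co-treated group. Their part in the Ppargc1a result was not tested. Of the 14 regulators limma-voom called 3 higher and 4 lower with LPS, and 5 higher and 1 lower with sedanolide. In co-treated against control it called 4 higher and 3 lower, and in the interaction 2 higher and 4 lower. Of 17 genes of pyruvate dehydrogenase and the citric acid cycle, edgeR called 1 in the 6 tests, Ogdh of the oxoglutarate dehydrogenase complex, higher with sedanolide against control (0.29, adjusted p 0.0416). DESeq2 called 2 higher in that comparison, and limma-voom 3 higher and 1 lower. With LPS against control limma-voom called 3 lower, and in co-treated against LPS 3 higher. Of 27 mitochondrial carrier genes edgeR called 0 in each of the 6 tests; with LPS 4 had an unadjusted p under 0.05, limma-voom called 8 and DESeq2 1, all lower. With sedanolide 9 had an unadjusted p under 0.05, limma-voom called 11 lower and 1 higher and DESeq2 1 higher. In the interaction 10 had an unadjusted p under 0.05, limma-voom called 14 higher and DESeq2 1 higher. In co-treated against sedanolide limma-voom called 9 higher, and in co-treated against LPS 3 higher.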

How the data were processed

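Poly(A) RNA of mouse medial prefrontal cortex was sequenced from 19 libraries in 4 groups (stranded mRNA library kit, per the labels' protocols). Raw whole-number counts for each gene, labelled featureCounts, were deposited by the authors. fastp, HISAT2, StringTie, RSEM and DESeq2 are named in the submitters' processing notes, without versions or roles. The genome build, annotation, strand setting and treatment of reads matching several places are not given in the sources used here. Totals of 19.08 to 24.32 M counts set the counting error, which is small beside the spread between libraries for all but the lowest members. No control replicate 3 is among the 19 libraries.

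Counts were tested with edgeR 4.0.16 (R 4.3.3; filterByExpr, TMM factors, robust quasi-likelihood fit with 1 mean per group over all 19 libraries, two-sided), with Benjamini-Hochberg adjustment over 17757 genes and a threshold of 0.05. The fit was tested on simulated data. Levels are TMM-scaled CPM; levels per kilobase use GENCODE M21 lengths, found for 96 of the 96 members. Copies are matches to annotated GENCODE M21 transcripts of other genes, of at least 98% identity over at least 100 bases (blastn 2.17.0). Alternatives were DESeq2 1.42.0, limma-voom (limma 3.58.1), other library factors, expression filters, a replicate block, offsets for length and GC content, the olfactory bulb index, libraries with little Cdhr1, only the groups compared, and each library left out; 3 more, on copies and transcript length, were chosen after seeing the data. Named are all members called, the 3 of smallest p in each direction of each comparison, the highest member per kilobase of each complex and origin, all mitochondrially encoded members, the tissue-restricted forms with their common forms, the Sdh genes, and up to 4 called genes of each other list. The members and lists were chosen with earlier results of these data known.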

Additional observations from a re-analysis of the deposited data

Results flagged for a closer look

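In 76 groups of 4 or 5 libraries looked at for a library far from the others, 7 had one; chance alone gives about 1 in 20. Co-treated replicate 5 accounts for 5 of the 7: its summed nuclear members stood at 8556 CPM (the other co-treated libraries 10390 to 10670), those of complex I at 2093 CPM (2556 to 2634), complex III at 756.8 CPM (909.7 to 943.8), complex IV at 1653 CPM (2381 to 2540) and complex V at 3374 CPM (3722 to 3839). These sums share a library and are not separate signs. LPS replicate 1 stood at 8.406 CPM for Ndufa4l2 (the others 5.852 to 6.197), and sedanolide replicate 5 at 34.41 CPM for Ndufv3 (38.85 to 40.65).

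The LPS difference of Ndufa12 differed between mice with and without sedanolide by the interaction term, 0.63 on the log2 scale (SE 0.137, adjusted p 0.0418 in edgeR). The call was lost in 14 of the 19 fits that left out 1 library, with a replicate block (adjusted p 0.155), with offsets for length and GC content (0.126), with both (0.283) and in libraries with little Cdhr1 (0.384).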

How the results depend on the processing

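The count of members called depended on the fit more than the median did. In LPS against control (3 called) it was 14 with length and GC offsets (11.3% of all genes) and 23 with limma-voom (25.4% of all genes). It was 0 in libraries with little Cdhr1 (4.78%), 1 with only the groups compared (6.51%) and 1 among members without a copy. Leaving out 1 library gave 1 to 4. In sedanolide against control (4) it was 2 without an expression filter (1.23% of all genes), 2 with offsets (1.52%) and 9 with the bulb index (7.63%). It was 0 with little Cdhr1 (0.0451%) and 1 with only the groups compared (0.113%). It was 63 with limma-voom (24.8% of all genes), 12 with DESeq2 (11.5%) and 2 without copies. Leaving out 1 library gave 0 to 12. In co-treated against LPS (0) it was 1 with offsets (3.02%), 29 with limma-voom (14.9%) and 1 with DESeq2 (4.61%), and 0 to 0 with 1 library left out. In co-treated against sedanolide (5) it was 2 without a filter (2.45%), 0 with offsets (5.78%), 2 with little Cdhr1 (4.91%) and 2 with only the groups compared (5.98%). It was 63 with limma-voom (19.8% of all genes), and 1 to 24 with 1 library left out. In co-treated against control (1) it was 0 with RLE or upper-quartile factors, no filter, a filter at 1 CPM, a total without mitochondrial genes, the bulb index, little Cdhr1 or only the groups compared, 4 with offsets, 5 with limma-voom (26.9%), 4 with DESeq2 (13.8%) and 0 to 2 with 1 library left out. For the interaction (1) it was 0 with offsets (0.445%), with little Cdhr1 (0.113%) or without copies, and 2 with the bulb index (1.51%). It was 68 with limma-voom (21.6%), 8 with DESeq2 (2.83%) and 0 to 9 with 1 library left out. For the fits with 1 library left out the share of all genes called is not given here, so those counts are not read as particular to the members. The cause of these shifts was not tested.

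With the replicate block the counts were 1, 1, 0, 1, 0 and 0 in this order, and with the block and offsets together 6, 0, 0, 0, 2 and 0. Of all genes the block fit called 7.55%, 0.535%, 0.817%, 4.48%, 5.37% and 0.18% in the same order. With block and offsets the shares were 8.5%, 0.248%, 1.28%, 4.78%, 5.89% and 0.253%. Same-numbered libraries had a median correlation of -0.0537 over 27 pairs (5 over 0.1), and 1 of 19 libraries correlated best with its own number, so the numbers were not taken to pair the libraries.

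The nuclear medians kept their sign in every alternative and every fit with a library left out, except in co-treated against control (0.03 with little Cdhr1). They moved beyond the spread to -0.13 with offsets and -0.13 with block and offsets in sedanolide against control, to 0.049 and 0.051 in co-treated against sedanolide, and to 0.23, 0.23 and, with limma-voom, 0.71 for the interaction. The mitochondrial medians moved to 0.34 and 0.35 in sedanolide against control and to -0.27 and -0.31 for the interaction. Depth limits Cox6b2, Cox7a1, Cox4i2 and mt-Atp8, all at low CPM.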

Other observations

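Some genes of the integrated stress response, a set of transcripts that follow amino acid, endoplasmic reticulum or mitochondrial stress, were called. Over all genes tested 10.9% were called with LPS, 5.31% with sedanolide and 1.97% in co-treated against LPS. The number of listed genes not called is not given here, so these calls are not read as a result about the response. Ddit4, an inhibitor of mTOR signalling, fell with LPS (log2 difference -0.79, adjusted p 4.73e-05 in edgeR) and with sedanolide (-0.93, adjusted p 0.000586), both against the same controls, and its interaction was 1.24 (adjusted p 0.000491). In co-treated mice it was higher than with sedanolide alone (0.45, adjusted p 0.0108) and lower than in the controls (-0.47, adjusted p 0.0106). Atf4, the transcription factor of the response, fell with LPS (-0.34, adjusted p 0.00539). Trib3, a target of that response, rose with LPS (1.02, adjusted p 0.0331) and fell in co-treated mice against LPS alone (-1.22, adjusted p 0.0316), a comparison that shares the LPS libraries. From a separate list, on hypoxia and reactive oxygen, Ucp2, an inner membrane carrier, rose with LPS (1.19, adjusted p 0.00032). So did Epas1, the hypoxia-inducible factor of vessels (0.44, adjusted p 0.0173), which fell in co-treated mice against LPS alone (-0.54, adjusted p 0.014).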
